A study of Mus musculus with 9 samples.

Results

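The 10 genes studied here mark or direct hematopoietic stem and progenitor cells and were followed across 3 mouse myeloid cell lines. They were taken by symbol, with earlier results of these data known, as 10 of the 54347 genes in the table of estimated counts. They comprise the surface genes *Cd34*, *Prom1*, *Procr*, *Ly6a*, *Slamf1*, *Cd48* and *Cd27* and the transcription factor genes *Hlf*, *Sox4* and *Mecom*. Of these 10 genes, 7 had enough reads to be tested among 13082 genes. *Slamf1*, *Cd27* and *Mecom* did not, and their counts are given without a test except where another setting is named.

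Poly-A RNA was sequenced from the lines Hox-WT, Hox-URE and URE-AML, with 3 libraries each. Hox-WT is wild type, whereas Hox-URE and URE-AML are both UREd/d, that is, they lack an upstream regulatory element (URE) which drives *Spi1*. *Spi1* encodes PU.1, a myeloid and lymphoid transcription factor. Both Hox lines were made from c-Kit+ bone marrow progenitors of 1 wild-type and 1 UREd/d mouse with a Hoxb8-ER fusion that works in the presence of estradiol, and URE-AML (B22 in the labels) grew out of the leukemic blasts of a UREd/d mouse. All 3 lines were kept in IMDM with 20% FCS, IL-3, IL-6 and SCF at 10 ng/ml each, and β-estradiol, which the labels give as 1 µM and the study's methods give at another concentration. The labels call both Hox lines hematopoietic progenitors and URE-AML blast-like. Each genotype and stage is 1 line, so every difference is one between lines, and since no source says whether a line's libraries are separate cultures, p-values measure only the spread between libraries. RNA comes from whole cultures, in which fewer cells of a type and less RNA per cell cannot be told apart.

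In the bone marrow, blood formation starts from rare stem cells that are recognized by surface proteins rather than by shape. Mouse stem cells carry Sca-1 (the product of *Ly6a*), EPCR (*Procr*) and CD150 (*Slamf1*) and lack CD48, while CD34, CD27 and CD48 appear on the multipotent and myeloid progenitors that follow. The factors HLF, EVI1 (from *Mecom*) and SOX4 act inside these cells, HLF and EVI1 in keeping stem cells and SOX4 in immature lymphoid and myeloid cells and in leukemia.

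Libraries held 20331064 to 28588718 counts, at which 3 counts, the floor used here for a gene at 0, equalled 0.104 to 0.153 CPM (counts scaled to library size), for counting error only. *Spi1*, the target of the deletion, had 2932, 2832 and 2791 counts in the Hox-WT libraries, 1, 1 and 0 in Hox-URE and 62, 116 and 148 in URE-AML. The lines also differed in the markers of maturing blood cells. Summed neutrophil markers (10 genes) ranged from 5671 to 9081 CPM over Hox-WT libraries, 2621 to 4008 CPM over Hox-URE libraries and 11490 to 26280 CPM over URE-AML libraries, with *S100a9* and *Ltf* at 0 in Hox-URE. *Ctsg* made up most of the Hox-URE sum (mean 3324 CPM) and the 9 others were called lower than in Hox-WT, while in URE-AML 9 were called higher than in Hox-WT and *Mpo* lower. Basophil and mast cell markers (8 genes) ranged from 497 to 821.6 CPM, 1594 to 6123 CPM and 37.0 to 71.0 CPM. *Fcer1a* was at 0 in both Hox lines. The largest part of this sum was *Cpa3* in Hox-WT and Hox-URE (means 547.5 and 2663 CPM) and *Mcpt8* in URE-AML (32.5 CPM). Of the 5 tested, URE-AML had 3 called lower against Hox-WT but *Mcpt8* called higher (mean 8.56 CPM in Hox-WT). Monocyte markers (7 genes) ranged from 78.9 to 160.1, 841.4 to 941.9 and 173.4 to 342 CPM. In Hox-URE *Ccr2* alone averaged 884.9 CPM and *Csf1r* was at 0. Of the 6 tested between the Hox lines, only *Ccr2* was called higher in Hox-URE, whereas *F13a1*, *Irf8*, *Csf1r* and *Ly86* were called lower there. Lymphoid markers (6 genes) were at 37.2 to 49.9, 34.5 to 41.2 and 0 to 0.190 CPM, almost wholly *Ebf1* in the Hox lines, with *Cd3e* at 0 in all lines. Megakaryocyte markers (6 genes) summed to at most 51.0 CPM in any library and erythroid markers (6 genes) to at most 13.7 CPM. Of 4 endothelial markers, *Cdh5* and *Cldn5* were at 0 in every line and *Pecam1*, which blood cells also express, made up most of the rest. The part of these shifts in the results that follow was not tested.

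Of the 10 genes, 5 fell at both steps, from the wild-type line to Hox-URE and on to URE-AML, although the first call of *Cd34* was lost without Hox-URE library 1. Between the Hox lines, 6 of the 7 tested were called lower in Hox-URE and 0 higher, where called means an adjusted p under 0.05 with a fold change over 1.5. Between these lines 15.9% of all tested genes were called lower and 21.3% higher. Set against Hox-WT, URE-AML had 5 of the 7 tested called lower and 1 higher, beside 20.2% and 23.0% of all tested genes. Set against Hox-URE, it again had 5 lower and 1 higher, beside 22.4% and 20.3%. The 3 comparisons share lines, so these counts are not independent of each other. Hox-URE library 1 stood apart from libraries 2 and 3 of its line (chi-square over degrees of freedom 72.7 and 107.3, against 28.7 between those 2). It had the lowest summed basophil and mast cell markers of the line (1594 CPM) and the lowest level of *Cd34*, *Procr*, *Ly6a*, *Cd48* and *Sox4* in the line, so calls of the 10 genes that change without it are given both ways. *Cd34*, *Procr*, *Cd48*, *Hlf* and *Sox4* were called lower in each of the 3 comparisons, *Prom1* was lower in Hox-URE than in both other lines, and *Ly6a* was called higher in URE-AML against Hox-WT alone.

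**Figure D1:**
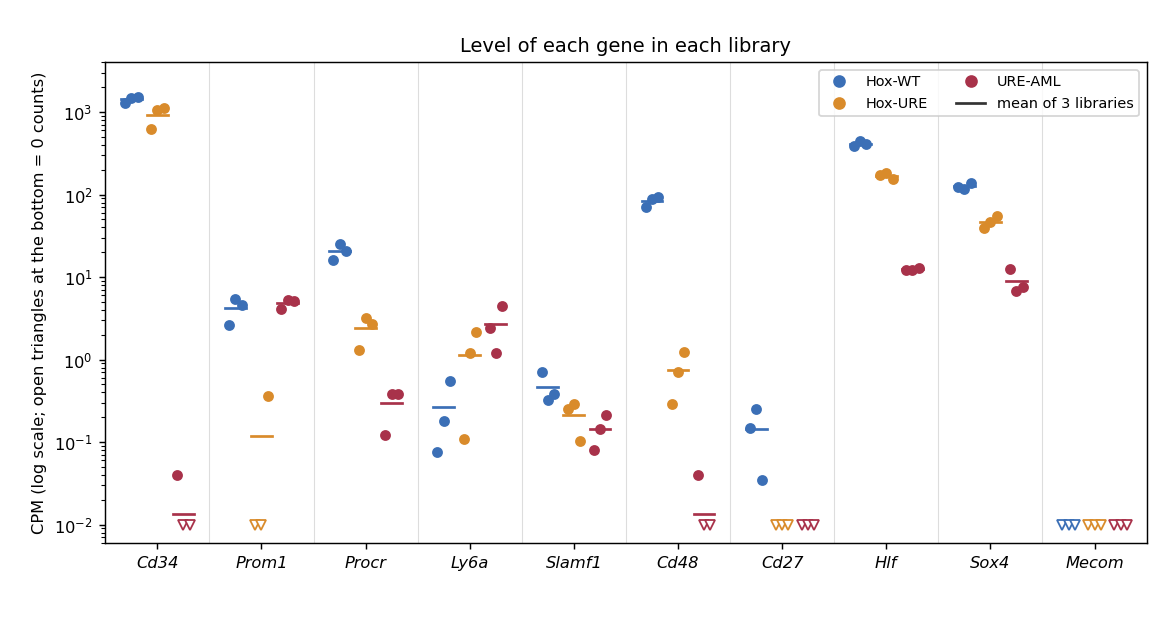
CPM on a log axis in each library for the 10 genes, colored by line, with a horizontal bar for the mean of 3 libraries and open triangles at the bottom for libraries with 0 counts. *Cd34*, *Procr*, *Cd48*, *Hlf* and *Sox4* step down from Hox-WT through Hox-URE to URE-AML, *Prom1* drops in Hox-URE alone among the 3 lines, and *Mecom* is at 0 in all 9 libraries.

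The promoters of the 5 genes called lower in all 3 comparisons are printed because these genes stepped down together. They are the 250 bases before the RefSeq start on GRCm38.p6, written 5′ to 3′ along the gene. Capitals mark letters that were searched on both strands: GAGGAA, a sequence bound by PU.1 and related ETS factors, TGTGGT or TGCGGT for RUNX factors, AGATAA for GATA factors and the E-box CAGCTG. Shorter ETS letters within the first, such as GGAA, were not searched. None of these 4 motifs overlaps another in the windows printed.
*Cd34*, chr1:194938571-194938820, plus strand: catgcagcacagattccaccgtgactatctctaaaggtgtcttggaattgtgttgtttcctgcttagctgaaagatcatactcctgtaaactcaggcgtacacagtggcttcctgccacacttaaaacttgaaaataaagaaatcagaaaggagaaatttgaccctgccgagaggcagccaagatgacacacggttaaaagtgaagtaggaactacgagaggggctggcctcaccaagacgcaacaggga
*Procr*, chr2:155750967-155751216, plus strand: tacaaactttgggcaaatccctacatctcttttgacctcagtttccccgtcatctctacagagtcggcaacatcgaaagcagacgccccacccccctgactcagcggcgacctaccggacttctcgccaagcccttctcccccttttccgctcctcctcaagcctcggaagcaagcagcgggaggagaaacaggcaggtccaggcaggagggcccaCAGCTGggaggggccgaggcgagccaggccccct
*Cd48*, chr1:171681742-171681991, plus strand: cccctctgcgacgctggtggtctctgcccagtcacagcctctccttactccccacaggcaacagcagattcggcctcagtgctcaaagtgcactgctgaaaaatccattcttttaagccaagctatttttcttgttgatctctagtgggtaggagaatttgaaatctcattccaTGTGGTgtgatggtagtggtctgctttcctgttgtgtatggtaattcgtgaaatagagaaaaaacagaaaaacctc
*Hlf*, chr11:90390918-90391167, minus strand: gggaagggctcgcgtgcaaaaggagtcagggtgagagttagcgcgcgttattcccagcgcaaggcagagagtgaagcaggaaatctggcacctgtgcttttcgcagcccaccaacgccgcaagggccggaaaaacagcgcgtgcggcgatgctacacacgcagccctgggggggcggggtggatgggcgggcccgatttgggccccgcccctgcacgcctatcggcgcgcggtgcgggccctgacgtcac
*Sox4*, chr13:28953700-28953949, minus strand: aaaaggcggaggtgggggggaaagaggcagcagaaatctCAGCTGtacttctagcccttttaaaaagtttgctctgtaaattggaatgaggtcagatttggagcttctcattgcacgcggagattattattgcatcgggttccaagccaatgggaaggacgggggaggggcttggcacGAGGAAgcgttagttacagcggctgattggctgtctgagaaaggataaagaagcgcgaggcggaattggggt

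Of 32851 promoters in the same table, 23.3% held GAGGAA within 250 bases, 18.6% a RUNX motif, 9.99% AGATAA and 13% CAGCTG. Among the 5 printed, *Sox4* held GAGGAA, 72 bases before the start, and an E-box at 211 bases, *Procr* an E-box at 34 bases and *Cd48* a RUNX motif at 76 bases, counted to the first letter. The windows of *Cd34* and *Hlf* held none of the 4, which says only that these letters are missing from these windows. The sequences also differ in composition, from 26 CpG dinucleotides and 67.2% GC in the window of *Hlf* to 4 CpG and 46% GC in that of *Cd48*. The start used in these lines was not measured.

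*Cd34* (ENSMUSG00000016494, chr1:194938819-194961279, plus strand, GRCm38), the sialomucin for which CD34+ progenitors are named, was the most abundant of the 10 genes in both Hox lines. Its level was 1301, 1470 and 1530 CPM in Hox-WT, 619.5, 1053 and 1105 CPM in Hox-URE, and 1, 0 and 0 counts in URE-AML. All Hox-WT libraries were above all Hox-URE libraries, and in URE-AML the transcript was all but missing. Hox-URE was 1.55-fold lower than Hox-WT (log2 fold change -0.63 ± 0.20 SE, adjusted p = 0.0224). The call was lost without Hox-URE library 1, the lowest of its line, at which the log2 fold change was -0.42, without Hox-WT library 2 (-0.62), without Hox-WT library 3 (-0.60) and when edgeR's glmTreat tested against a fold change of 1.5 (adjusted p = 0.484). The ratio of Hox-WT to URE-AML was 99300 from summed counts scaled to library size (95% counting interval 17820 to 3922000, adjusted p = 2.37e-09), and that of Hox-URE to URE-AML was 62210 (11160 to 2457000, adjusted p = 3.98e-09). Without URE-AML library 1, which held the single count, the level of *Cd34* was at least 10570-fold lower against Hox-WT and at least 6824-fold lower against Hox-URE. *Gm16897*, on the opposite strand of the locus, had at most 6 counts in any library, and 6.73% of the 31-base words of the longest *Cd34* transcript also occur in transcripts of other genes.

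*Prom1* (ENSMUSG00000029086, chr5:43993620-44102032, minus strand) encodes prominin-1 (CD133), a membrane protein of progenitors and of several epithelia. It had 70, 153 and 131 counts in Hox-WT, 0, 0 and 7 in Hox-URE and 101, 112 and 121 in URE-AML. Among the 7 tested genes of the 10, it alone fell in Hox-URE and stood in URE-AML within the range of Hox-WT libraries. The Hox-URE level was 39.4-fold below Hox-WT (log2 -5.30 ± 0.79, adjusted p = 0.000297), and URE-AML was 45.5-fold above Hox-URE (log2 5.51 ± 0.79, adjusted p = 0.000179). Hox-URE library 3 held all 7 counts of its line. Without it the line was at 0 and the folds were at least 36.02 against Hox-WT and at least 41.7 against URE-AML. Leaving out Hox-URE library 1 gave log2 values of -4.65 and 4.85, and leaving out library 2 gave 4.92 for URE-AML against Hox-URE. URE-AML and Hox-WT averaged 4.86 ± 0.685 and 4.21 ± 1.45 CPM (SD, n = 3), with libraries that overlapped and a log2 difference of 0.21 ± 0.53 (adjusted p = 0.762).

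*Procr* (ENSMUSG00000027611, chr2:155751117-155755471, plus strand), the gene of the endothelial protein C receptor, fell at each step. Its counts were 427, 712 and 599 in Hox-WT, 36, 78 and 53 in Hox-URE and 3, 8 and 9 in URE-AML, with no overlap between lines. Means were 20.7 ± 4.71, 2.42 ± 0.993 and 0.296 ± 0.151 CPM (SD, n = 3). Hox-URE was 8.63-fold below Hox-WT (log2 -3.11 ± 0.35, adjusted p = 4.46e-05), and URE-AML was 8.12-fold below Hox-URE (log2 -3.02 ± 0.47, adjusted p = 0.000312) and 70.0-fold below Hox-WT (log2 -6.13 ± 0.44, adjusted p = 1.29e-06). EPCR works at the cell surface with thrombomodulin and the thrombin receptor PAR1, whose genes *Thbd* and *F2r* did not share the first step. *Thbd* had 726, 771 and 710 counts in Hox-WT, 1964, 1302 and 1241 in Hox-URE and 28, 13 and 9 in URE-AML. It was therefore higher in Hox-URE than in wild-type cells (log2 1.25 ± 0.19, adjusted p = 0.000355) and lower in URE-AML than in Hox-URE (log2 -6.44 ± 0.27, adjusted p = 3.02e-08). *F2r* had 527, 602 and 717 counts in Hox-WT, 4756, 11705 and 16021 in Hox-URE (log2 4.48 ± 0.48, adjusted p = 3.28e-05, and 3.89 without Hox-URE library 3) and 95, 76 and 59 in URE-AML (log2 -7.21 ± 0.56 against Hox-URE, adjusted p = 2.42e-06). *Proc*, the gene of protein C itself, was at 0 in all libraries.

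*Ly6a* (ENSMUSG00000075602, chr15:74994877-74998031, minus strand) encodes Sca-1, the antigen by which mouse stem cells are sorted, and was close to the floor in Hox-WT. Its counts were 2, 5 and 16 in Hox-WT, 3, 29 and 42 in Hox-URE and 60, 25 and 105 in URE-AML. Hox-URE library 1 lay among the Hox-WT libraries, and the other Hox-URE libraries lay within the range of URE-AML. In URE-AML *Ly6a* was 9.80-fold above Hox-WT (log2 3.29 ± 0.94, adjusted p = 0.0124). The value moved between 2.72 without URE-AML library 3 and 4.34 without Hox-WT library 3, and the adjusted p was 0.0501 without Hox-WT library 2. Hox-URE against Hox-WT did not pass (log2 2.03 ± 0.96, adjusted p = 0.100, with 1.22 without Hox-URE library 3 and 3.08 without Hox-WT library 3), but did without Hox-URE library 1 (log2 2.58, adjusted p = 0.0141) and with no filter on low counts (adjusted p = 0.0411). URE-AML against Hox-URE did not pass either (log2 1.26 ± 0.84, adjusted p = 0.222, and 2.06 without Hox-URE library 3). On chromosome 15, which holds the gene, the median log2 fold change of 510 tested genes between Hox-URE and Hox-WT was 0.33. Within 1 Mb of *Ly6a* the median of 21 tested genes was -0.24, with 1 called higher and 5 lower. In URE-AML the median of these 21 was 0.26 against Hox-WT, with 8 called higher and 4 lower. Against Hox-URE it was 0.45, with 9 called higher and 1 lower. The medians over chromosome 15 were -0.0011 and -0.39 in these comparisons.

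*Ly6a* sits in a cluster of similar genes, and 22.1% of the 31-base words of its longest transcript occur in other genes, 10.6% in *Ly6c1* and 5.08% in *Ly6c2*. *Ly6c2*, a gene of myeloid cells, had 590, 1506 and 2078 counts in Hox-WT, 1, 24 and 18 in Hox-URE and 15969, 7300 and 23785 in URE-AML. The *Ly6a* count came to 0.332% to 0.77% of the *Ly6c2* count in the 3 Hox-WT libraries and to 0.342% to 0.441% in the 3 URE-AML libraries, although *Ly6c2* itself differed 13.6-fold between these lines (log2 3.77 ± 0.55, adjusted p = 0.000198). In Hox-URE the *Ly6a* count was 300%, 121% and 233% of the *Ly6c2* count. These are ratios between the counts of separate genes, not of levels per length, and in Hox-URE library 1 the ratio rests on 3 and 1 counts. *Ly6c1* was likewise highest in URE-AML, with 7, 31 and 29 counts in Hox-WT, 6, 14 and 23 in Hox-URE and 274, 138 and 376 in URE-AML. Whether reads of these relatives were assigned to *Ly6a* was not tested.

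**Figure D2:**
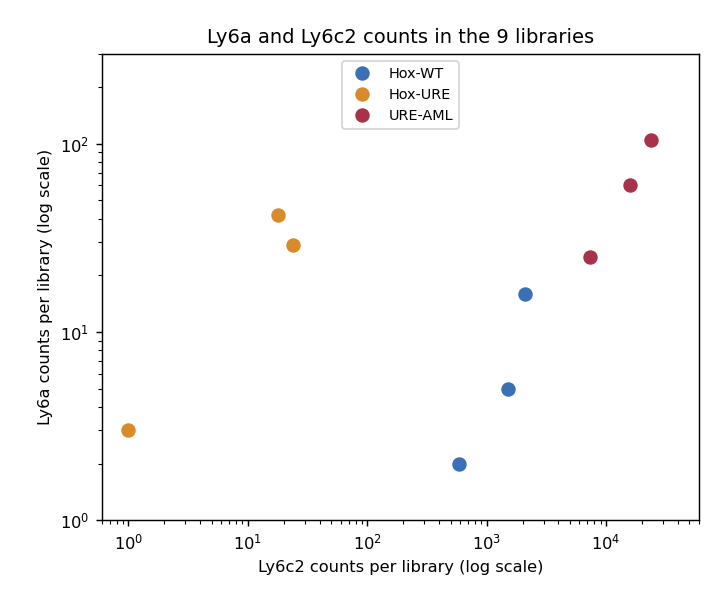
Estimated *Ly6a* counts (vertical, log axis) against *Ly6c2* counts (horizontal, log axis) in each of the 9 libraries, colored by line. Hox-WT and URE-AML libraries lie along 1 band in which *Ly6a* is 0.332% to 0.77% of *Ly6c2*, and the 3 Hox-URE libraries lie apart, at 1 to 24 *Ly6c2* counts.

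*Cd48* (ENSMUSG00000015355, chr1:171682009-171705258, plus strand) and *Slamf1* (ENSMUSG00000015316, chr1:171767127-171801184, plus strand) are members of the signaling lymphocyte activation molecule (SLAM) family, and their starts lie 85.1 kb apart. In the marrow, CD48 is carried by progenitors that have left the stem cell state and CD150 by stem cells. *Cd48* had 1873, 2454 and 2669 counts in Hox-WT, 8, 17 and 24 in Hox-URE and 1, 0 and 0 in URE-AML. No Hox-URE or URE-AML library came near any of Hox-WT. Hox-URE was 118-fold below Hox-WT (log2 -6.88 ± 0.34, adjusted p = 1.47e-07). The ratio of Hox-WT to URE-AML was 5782 (95% counting interval 1037 to 228400, adjusted p = 3.05e-08) and that of Hox-URE to URE-AML 47.6 (8.15 to 1917, adjusted p = 0.000838). Without URE-AML library 1, the level of *Cd48* was at least 614.5-fold lower against Hox-WT and at least 5.46-fold lower against Hox-URE. *Slamf1* had 19, 9 and 11 counts in Hox-WT, 7, 7 and 2 in Hox-URE and 2, 3 and 5 in URE-AML, too few to be tested. With no filter on low counts its adjusted p was 0.267, 0.0792 and 0.601 in the 3 comparisons, in the order given above. No line thus had a *Slamf1* level over 0.712 CPM in any library.

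The tested SLAM relatives of *Cd48* did not fall with it in Hox-URE, while the untested *Slamf1* had fewer counts there, as given above. Of 7 other SLAM family genes, 4 were tested, and 3 of them rose and 0 fell from Hox-WT to Hox-URE. *Cd84*, a homophilic SLAM receptor, had 1130, 978 and 913 counts in Hox-WT, 4301, 5292 and 4253 in Hox-URE and 731, 726 and 886 in URE-AML. Its Hox-URE libraries were above all others, 5.45-fold above Hox-WT (log2 2.45 ± 0.17, adjusted p = 1.38e-06). *Ly9*, another SLAM receptor, rose by 2.45 ± 0.42 (adjusted p = 0.000725) and *Cd244a*, the receptor that binds CD48, by 0.92 ± 0.25 (adjusted p = 0.0111, lost under glmTreat) on the log2 scale. The spans of *Cd244a* and *Ly9* overlap in the genome on opposite strands, and whether their exons share bases was not examined. In URE-AML against Hox-URE all 4 tested relatives were called lower, as was *Cd48*. Within 1 Mb of *Cd48*, 45 genes were tested, of which Hox-URE had 16 called higher and 2 lower, the Fc receptor genes *Fcgr2b* (log2 -10.49) and *Fcgr4* (log2 -2.995). Over the 45 genes the median log2 value was 0.34. *Slamf6*, *Slamf7* and *Slamf8* were at 0 in all lines, as was *Cd2*, whose product binds CD48.

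**Figure D3:**
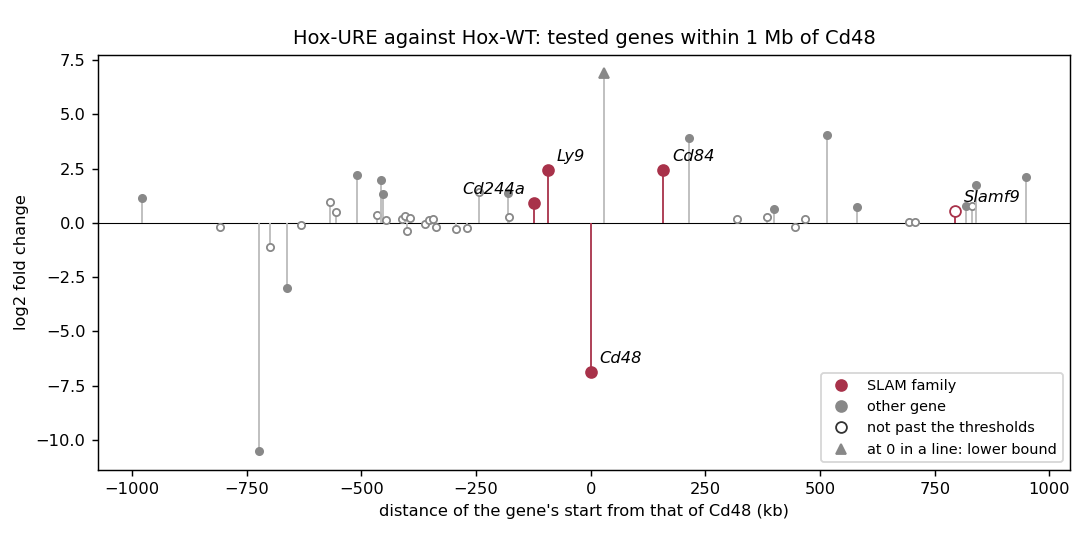
Log2 fold change of Hox-URE against Hox-WT (vertical) for the tested genes within 1 Mb of *Cd48*, by distance of their start from that of *Cd48* in kb, with SLAM family genes in red, open circles for genes not past the thresholds and a triangle for a gene at 0 in Hox-WT, drawn at its lower bound. *Cd48* points down at -6.88 while *Cd84*, *Ly9* and *Cd244a* point up.

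*Cd27* (ENSMUSG00000030336, chr6:125232622-125237010, minus strand), a receptor of the tumor necrosis factor family on multipotent progenitors and lymphocytes, had 4, 7 and 1 counts in Hox-WT and 0 in all 6 other libraries. The Hox-WT mean of 0.145 CPM lay within the range of the floor over all libraries, so no fold is given. With no filter on low counts it was called lower in Hox-URE (adjusted p = 0.042) and in URE-AML (adjusted p = 0.0402). *Vamp1*, which overlaps it on the opposite strand, had 28 to 175 counts per library. *Cd70*, the ligand of CD27, was at 0 throughout.

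Among the regulators, *Hlf* (ENSMUSG00000003949, chr11:90336536-90390895, minus strand), a PAR bZIP factor of stem cells, had the smallest SE of the 7 tested genes in each comparison. It was at 382.7, 444.2 and 412.7 CPM in Hox-WT, 171.1, 184.0 and 153.3 CPM in Hox-URE and 12.2, 12.0 and 13.04 CPM in URE-AML. The lines were apart by far more than the spread of their libraries. Hox-URE was 2.44-fold below Hox-WT (log2 -1.29 ± 0.10, adjusted p = 2.75e-06), URE-AML 13.7-fold below Hox-URE (log2 -3.77 ± 0.11, adjusted p = 3.65e-09) and 33.3-fold below Hox-WT (log2 -5.06 ± 0.11, adjusted p = 8.7e-10). Within 1 Mb of *Hlf*, 6 other genes were tested. In URE-AML against Hox-WT their median log2 value was -0.89, with 0 called higher and 5 lower, beside -0.053 over chromosome 11. Against Hox-URE the median was -0.25, with 1 called higher and 2 lower. Between the Hox lines it was -0.21, with 0 and 2. A regional cause was not tested. Of its relatives in the PAR bZIP family, *Tef* stood in URE-AML 1.51-fold below Hox-WT (log2 -0.60 ± 0.17, adjusted p = 0.0104), and lost the call under glmTreat and without URE-AML library 1, URE-AML library 3 or Hox-WT library 2. Against Hox-URE it was also called lower (log2 -0.64 ± 0.17, adjusted p = 0.00749), a call lost under glmTreat, with library size as the only scaling and without URE-AML library 1, URE-AML library 3 or Hox-URE library 2. *Dbp* had 118 to 243 counts per library and *Nfil3*, a repressor that binds the same sites, 589 to 1156, with no call in any comparison for either.

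*Sox4* (ENSMUSG00000076431, chr13:28948919-28953713, minus strand), a SOXC factor encoded by a single exon, was at 124.1, 118.3 and 137.3 CPM in Hox-WT, 39.1, 46.5 and 55.0 CPM in Hox-URE and 12.4, 6.80 and 7.55 CPM in URE-AML. Its libraries did not overlap between lines. Hox-URE was 2.70-fold below Hox-WT (log2 -1.43 ± 0.20, adjusted p = 0.000215), URE-AML 5.23-fold below Hox-URE (log2 -2.39 ± 0.22, adjusted p = 7.54e-06) and 14.1-fold below Hox-WT (log2 -3.82 ± 0.23, adjusted p = 2.89e-07). The other SOXC genes followed another pattern. *Sox11* was at 0 in all libraries, and *Sox12* was at 0 in Hox-WT but had 407, 235 and 193 counts in Hox-URE, at least 106.4-fold higher, and 94, 83 and 67 in URE-AML, at least 32.8-fold higher. *Mecom* (ENSMUSG00000027684, chr3:29951296-30548008, minus strand), whose product EVI1 is a zinc finger factor of long-term stem cells, had 0 counts in all 9 libraries, which allows up to 3 counts per library.

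**Figure D4:**
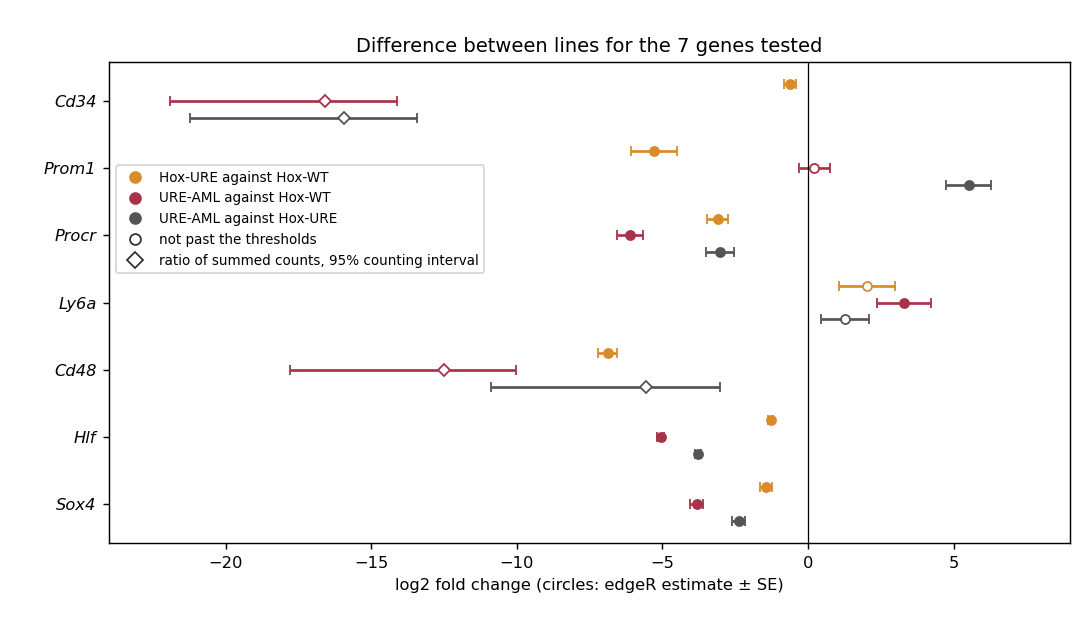
Log2 fold change (horizontal) of the 7 genes tested in the 3 comparisons, with circles for the edgeR estimate ± SE, open where not past the thresholds, and diamonds for the ratio of summed counts with its 95% counting interval where URE-AML held 1 count. All points of *Cd34*, *Procr*, *Cd48*, *Hlf* and *Sox4* lie left of 0, *Prom1* lies on both sides, and *Ly6a* lies to the right, with a filled circle in URE-AML against Hox-WT alone.

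Levels can be set beside each other between genes only per length, so counts were also expressed per length (TPM) with the longest annotated transcript. In Hox-WT the mean order in TPM was *Cd34* (963.8 ± 61.8 SD), *Hlf* (150.9 ± 10.1), *Cd48* (144.6 ± 17.7), *Sox4* (54.4 ± 3.53), *Procr* (26.5 ± 5.83), *Prom1* (2.11 ± 0.710), *Ly6a* (0.574 ± 0.529), *Slamf1* (0.221), *Cd27* (0.192) and *Mecom* (0). *Hlf* and *Cd48* differed by less than their SD, as did *Slamf1* and *Cd27*, and *Ly6a* stood above these last by less than its own SD but by more than theirs. In Hox-URE *Cd34* (551.9 TPM) again led *Hlf* (55.1), *Sox4* (17.9) and *Procr* (2.74), and *Cd48* (1.14) had dropped below *Ly6a* (2.19), within the SD of the latter. In URE-AML *Ly6a* (5.67 ± 3.39), *Hlf* (4.44 ± 0.103), *Sox4* (3.77 ± 1.35) and *Prom1* (2.40 ± 0.308) followed each other, all within the SD of *Ly6a*. With the mean length of all transcripts in place of the longest, *Hlf* stood at 245.7 TPM and *Cd48* at 98.5 TPM in Hox-WT, and in URE-AML *Hlf* (7.43 TPM) came before *Ly6a* (4.30 TPM).

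Genes with the pattern most like each of the 7 tested were sought by Pearson's r of log2 CPM over the 9 libraries, which form 3 lines, so that r mostly ranks how well the steps between lines match. *Hlf* was most like *Flt3*, the cytokine receptor of early progenitors (r = 0.9992), *Arhgap15* and *Hmga2*, and 455 genes had r over 0.95. *Cd34* was most like *Gpr65* (0.9992), *Gm48348* and *B3gnt7*, among 583 such genes. *Cd48* was followed by *Lrrc1* (0.9983), *Mcub* and *Idh2*, *Procr* by *Marcksl1* (0.9950), *Nebl* and *L3mbtl3*, and *Sox4* by *Frat1* (0.9940), *2900026A02Rik* and *Rps7*. *Prom1* (*Zscan21* at 0.9874, *Tdrd7*, *Zfp68*) and *Ly6a* (*Atox1* at 0.9823, *Tpgs1*, *Blvra*) had fewer such genes, 70 and 9.

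Between the Hox lines, other genes of stem cells and early progenitors did not step down as a block. In URE-AML, 9 of 14 tested regulators were called lower than in Hox-WT and 8 lower than in Hox-URE. Of 6 tested genes tied to quiescence or otherwise to stem cells, 3 and 4 were. The Ly6 relatives had 0 lower in either comparison of URE-AML. Over all tested genes the lower share was 20.2% and 22.4%, and between the Hox lines 15.9%. Of 15 further surface genes 10 were tested. Hox-URE had 4 called higher and 3 lower than Hox-WT, while URE-AML had 3 and 4 against Hox-WT and 5 and 5 against Hox-URE. *Kit*, the receptor of stem cell factor, fell 4.05-fold in Hox-URE (4521, 5383 and 4686 counts in Hox-WT, 1392, 1035 and 694 in Hox-URE, adjusted p = 9.74e-07). *Flt3* fell 7.59-fold in Hox-URE (adjusted p = 5.6e-06) and was at 0 in all URE-AML libraries, at least 826.7-fold below Hox-WT. *Cd93*, a lectin-like protein of early progenitors, rose 4.15-fold in Hox-URE (adjusted p = 2.62e-07), and *Eng*, a co-receptor for transforming growth factor β, rose 17.5-fold (adjusted p = 4.38e-05). *Cxcr4*, which holds cells in the marrow, and *Tie1*, an orphan receptor kinase, rose in URE-AML against Hox-WT by 2.12 ± 0.18 and 5.10 ± 0.60 on the log2 scale (adjusted p = 3.87e-06 and 4.58e-05).

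Of 18 further regulators 14 were tested. Hox-URE had 5 called higher and 2 lower than Hox-WT, while URE-AML had 2 and 9 against Hox-WT and 2 and 8 against Hox-URE. The count of 2 higher against Hox-WT was 1 on leaving out any of 6 libraries (all but Hox-URE 1 and 3 and Hox-WT 2) and 0 under glmTreat. *Bmi1*, a Polycomb gene of stem cell self-renewal, fell 4.09-fold in Hox-URE (adjusted p = 1.17e-06). *Prdm16*, a relative of *Mecom*, had 405, 339 and 257 counts in Hox-URE and 0 in all 6 other libraries, at least 129.7-fold above Hox-WT. In URE-AML *Meis1* was down to 0, 1 and 1 counts from 255 to 337 in Hox-WT (ratio 363.2, 95% counting interval 100.3 to 3004, adjusted p = 9.51e-07), and *Ikzf2* to 1, 0 and 2 from 409 to 447 (ratio 352.1, 120.2 to 1710, adjusted p = 2.61e-08, with the log2 value going from -8.31 to -9.16 without URE-AML library 3). *Gata2*, which stem cells share with mast cells and basophils, fell 12.0-fold (adjusted p = 5.2e-07) and *Lmo2* 3.01-fold (adjusted p = 7.33e-06). *Hoxa9*, *Hoxa10* and *Hoxb5* were at 0 in all 9 libraries.

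Of 9 genes tied to stem cell quiescence or otherwise to stem cells, 6 were tested. Between the Hox lines 2 were called higher and 3 lower, while URE-AML had 1 and 3 against Hox-WT and 1 and 4 against Hox-URE. Of the 3 lower calls between the Hox lines, that of *Mllt3* (log2 -0.71) was lost when library 1 of Hox-URE was left out (-0.49), and so it was without the second (-0.65) or the third (-0.65) of Hox-WT. The count was 2 without Hox-URE library 1 or 2, 1 without the second or the third of Hox-WT and 0 under glmTreat. The 1 higher call against Hox-URE was lost without URE-AML library 1 or Hox-URE library 2 and under glmTreat. *Angpt1*, a ligand of the receptor TIE2, held 4323 to 8180 counts in the Hox lines and 134, 136 and 137 in URE-AML, 43.9-fold below Hox-WT (adjusted p = 1.46e-08). *Mllt3* and *Myct1* also fell, with log2 fold changes of -2.58 ± 0.24 and -4.47 ± 0.21 for URE-AML against Hox-WT (adjusted p = 7.58e-06 and 5.46e-08). *Pdzk1ip1* rose between the Hox lines, with 1, 11 and 3 counts in Hox-WT and 1175, 3111 and 4117 in Hox-URE. Its log2 fold change was 9.43 ± 0.77 (adjusted p = 5.02e-06), and 10.69 without Hox-WT library 2. In URE-AML *Pdzk1ip1* had 0, 0 and 1 counts, called lower than in Hox-URE but not called against Hox-WT. The ratio of Hox-WT to URE-AML was 12.4 (counting interval 1.91 to 521.9). Of 7 genes of lymphoid-primed progenitors 5 were tested, with 1 higher and 2 lower, 2 and 2, and 2 and 2 in the same order, where the first count was 2 without Hox-URE library 1 or Hox-WT library 3. *Notch1* rose at both steps, with 82 to 90 counts in the Hox-WT libraries, 293 to 416 in those of Hox-URE and 4553 to 5784 in those of URE-AML (log2 6.14 ± 0.15 against Hox-WT, adjusted p = 1.26e-09). *Dntt*, a gene of early lymphoid cells, was at 0 in URE-AML, at least 125.6-fold below Hox-WT.

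The Ly6 relatives (4 of 8 tested) gave 0 higher and 1 lower, 3 and 0, and 2 and 0 in the order above, with 1 higher in the first without Hox-URE library 1. The partners and relatives of the remaining genes (6 of 13 tested) gave 3 and 0, 1 and 3, and 0 and 4.

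**Figure D5:**
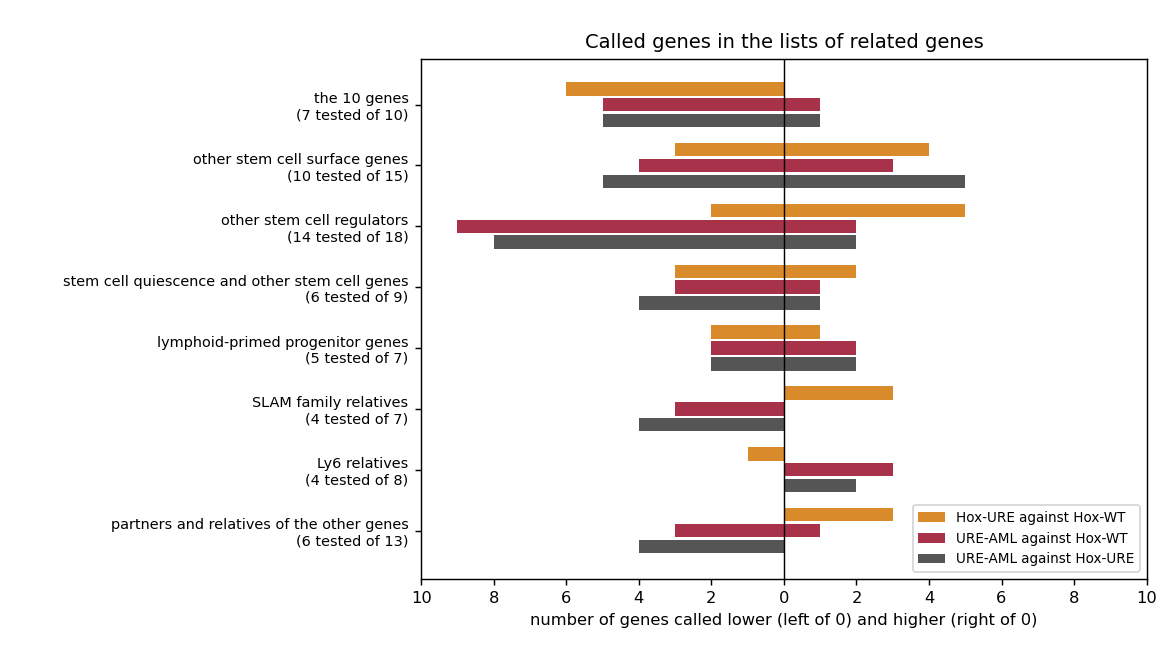
Number of genes called lower (left of 0) and higher (right of 0) in each list of related genes, with a bar for each of the 3 comparisons and the number tested of those listed beside the name. Between the Hox lines the 10 genes have 6 called lower and 0 higher, while the other surface genes have 3 and 4 and the SLAM family relatives 0 and 3.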

How the data were processed

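The authors quantified reads of stranded poly-A libraries with salmon, tximport gave gene-level sums, and the deposited values are estimated counts per gene, held as whole numbers and not scaled to library size. Per the submitters' processing notes the build was GRCm38 and the tool Salmon. The tool's version, the transcriptome release and any scaling for transcript length are not given in the sources used here, nor is the use of strand in counting. Counts between similar genes are shared out by a model, so low counts of such genes may be misassigned.

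Lines and library numbers came from the sample labels. Genes were kept with filterByExpr (minimum count 10) and fitted in edgeR 4.0.16 (R 4.3.3) with TMM scaling, all 9 libraries and line as the only factor. Quasi-likelihood F tests were two-sided, p was adjusted by Benjamini-Hochberg over all tested genes, and each SE follows from the log2 fold change and the F statistic. The common biological coefficient of variation was 0.173. A fold against a line at 0 is a lower bound from 3 counts per library, and with 1 to 3 counts in a line the ratio of summed counts is given with its exact 95% interval. The code was tested on simulated data.

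The members, the lists of related and marker genes, the thresholds and the tests were chosen with earlier results of these data known. All 10 members are named, at most 4 called genes per list and comparison by smallest p, the 3 genes most like each tested member, and *Spi1*. *Dbp*, *Nfil3*, *Vamp1*, *Gm16897*, *Fcgr2b*, *Fcgr4* and list genes at 0 were named outside this rule, after their values were seen, as were marker genes. Positions and lengths are from GENCODE M21 (54094 of 54347 identifiers found), promoters from RefSeq on GRCm38.p6 (9 of 10 members, without *Ly6a*). Alternatives were 3 other scalings, no filter, 10 or more counts demanded of every library, a fit of the compared lines alone, a replicate block, DESeq2 1.42.0, calls by adjusted p alone, glmTreat with a fold change of 1.5, dropping each library, the mean transcript length and a window of 150 bases. Figures were drawn with matplotlib 3.10.9.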

Additional observations from a re-analysis of the deposited data

How the results depend on the processing

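Of 383 log2 fold changes of the 7 tested members under the alternatives, 375 kept their direction and side of the thresholds, 5 lost the call, 2 gained it and 1 changed sign, *Prom1* in URE-AML against Hox-WT, which was not called and stood at -0.041 without Hox-WT library 1 (up to 0.44 on leaving out another). Of the 10 genes, 0 were called higher in Hox-URE against Hox-WT but 1 with no filter on low counts (0 to 1 on leaving out a library), and 1 was called higher in URE-AML against Hox-WT but 0 to 1 on leaving out a library, *Ly6a* in both cases. Requiring 10 counts in every library left *Hlf* and *Sox4* alone to be tested, so 2 genes were called lower and 0 higher in each comparison.

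With the replicate block, 6, 5 and 5 genes were called lower and 0, 1 and 1 higher in the 3 comparisons, in the order of the report, and no call of a member changed. Same-numbered libraries correlated at 0.0995 to 0.271 (Hox-WT and Hox-URE), 0.01003 to 0.0844 (Hox-WT and URE-AML) and 0.0443 to 0.0923 (Hox-URE and URE-AML) in their deviations from the line means, and 6 of 6, 5 of 6 and 6 of 6 libraries correlated best with their own number, a hint from the data of a shared structure. The study's methods say, of experiments that took several days, that each day held replicates of all conditions, but tie no library number to a day, and not every pair was over 0.1, so the fit without the block was kept. In the lists, the block moved the genes called higher between the Hox lines from 0 to 1 (Ly6 relatives) and from 1 to 2 (lymphoid-primed progenitors). Of 30 TPM values 9 moved by over 1 SD with the mean transcript length. With 150 bases the shares of promoters with each motif were 14.5%, 11.4%, 5.65% and 8.39%. Depth limits *Slamf1*, *Cd27*, *Mecom* and, in Hox-WT, *Ly6a*.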
